A study of Mus musculus with 8 samples.

Results

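The 8 genes described here set the pace of entry into S phase and of the following switch into mitosis: the D-type cyclin genes Ccnd1, Ccnd2 and Ccnd3, their kinase partner gene Cdk6, the E-type cyclin genes Ccne1 and Ccne2, the phosphatase gene Cdc25a and the kinase gene Wee1. They were taken by symbol from the gene column of the m6A site lists of 4 mouse TBLC libraries. Of the 8 genes, 7 were found there, and Ccne2 had no called site. Together they held 47 called sites, of 85953 sites in the 4 lists, and 7 of the 10609 genes named there.

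N6-methyladenosine (m6A) was read by GLORI, in which unmethylated adenosine is converted and read as G while methylated adenosine is still read as A. The level at a site is the share of A reads among its A and G reads, from 0 to 1. The TBLC, grown in MYCP medium, received an siRNA against Virma (siVirma, 2 libraries) or the control siRNA labelled siNC (2 libraries). Virma encodes a scaffold subunit of the complex that writes m6A. A second experiment in EPSC used a guide against Gata6 (sgGata6, 2 libraries) or a control guide (sgCtrl, 2 libraries) with dCas13b-FTO, an inactive Cas13b joined to the m6A demethylase FTO, and its deposited table pools the libraries of a group. The labels do not say whether sgCtrl cells carry the same fusion, nor whether replicates were separate cultures, so a p-value covers the spread of these libraries, and that spread may be technical.

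D-type cyclins with Cdk4 or Cdk6 start the phosphorylation of the retinoblastoma protein in G1, and cyclin E with Cdk2 completes it and starts DNA replication. Wee1 puts inhibitory phosphates on Cdk1 and Cdk2, and Cdc25 phosphatases remove them, so the balance of both enzymes sets when the kinases become active. Mouse pluripotent stem cells are known for a short G1 phase, and several of these transcripts are short-lived.

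The lists held 3423268 and 2655963 A+G reads over called sites in siVirma and 4764955 and 4367999 in siNC. Gene coverage of Virma was 24.0 and 22.8 in siVirma, against 40.3 and 38.2 in siNC, which is 0.531-fold after centring (limma adjusted p = 0.000403). Among marker genes, 12 of 12 pluripotency genes and 16 of 23 genes of the 2-cell stage program had a called site in some list. Coverage of fibroblast (feeder) markers moved with the groups. Summed over the 11 of 20 markers listed in every library it was 743 and 610 in siVirma and 426 and 401 in siNC. Of the 11, 8 were called higher by limma, where 9.15% of all tested genes were. Dcn and Acta2 had no called site in any list. In the other marker lists 2 of 11 pluripotency genes, 5 of 11 genes of the 2-cell stage program and 3 of 10 primitive endoderm genes were called lower in siVirma. None of these was called higher, and over all tested genes 12.4% were called lower. Coverage calls depended on single libraries, as given in the last section. The part of feeder or other cell types in the results was not tested. Gene coverage is used as deposited, since the labels do not say how it was computed.

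Fewer sites of these genes were called after Virma knockdown. The 7 listed genes held 18 and 16 sites in the siVirma lists, against 38 and 40 in the siNC lists. The means were 17 ± 1.41 in siVirma and 39 ± 1.41 in siNC (SD, n = 2 each), which is 43.6% as many, where all sites of the lists gave 59.1%. An exact permutation of libraries (two-sided) returned p = 0.333, and no smaller p is possible with 2 libraries a group. Both siVirma lists lay below both siNC lists for 5 of the 7 genes, and the same held for 55.3% of the 10241 genes with a siNC site. Every listed site has 15 or more A+G reads, 5 or more A reads and a level of 0.1 or higher, so a site can drop out of a list through its level or its depth. No site of these genes was called in siVirma alone.

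**Figure D1:**
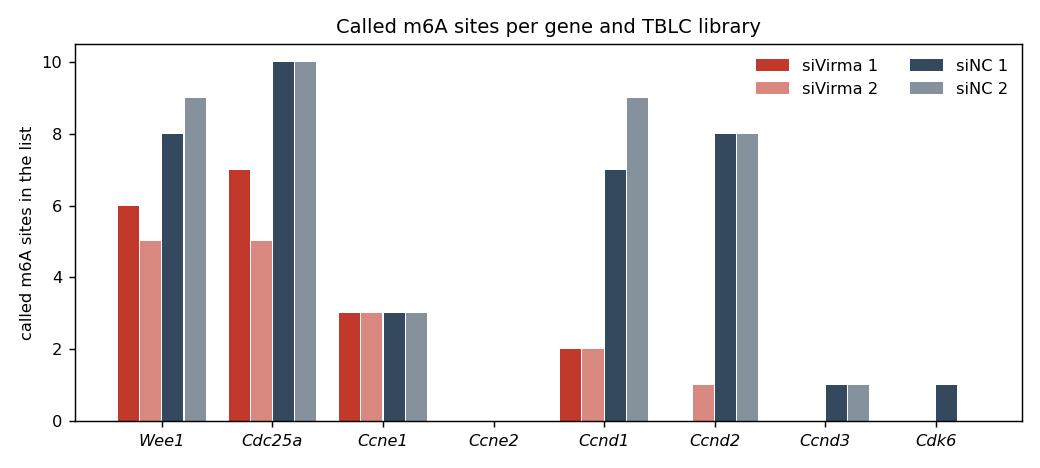
Called m6A sites per gene (vertical axis, number of sites) in each TBLC library, siVirma libraries in red and siNC libraries in grey-blue. Ccne1 kept 3 sites in every library, Ccnd2 had 0 and 1 in siVirma against 8 and 8 in siNC, and Ccne2 had none.

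Positions are given on the build mm39. Wee1, on the plus strand of chromosome 7, had 11 sites over 20304 nt, and 7 of them lay within 697 nt, from 109741315 to 109742011. Cdc25a, on the plus strand of chromosome 9, had 12 sites, with 8 between 109721388 and 109722007. Both runs lie at or near the downstream end of the listed sites in the direction of transcription. Ccnd2, on the minus strand of chromosome 6, had 8 of its 9 sites between 127106020 and 127106934. Ccnd1, on the minus strand of chromosome 7, was more spread, with 5 of 10 sites in its densest 1000 nt. The 3 sites of Ccne1, also on the minus strand of chromosome 7, lay within 445 nt, from 37797471 to 37797915. Over the 6758 genes with at least 3 siNC sites, the densest 1000 nt held a median of 75.0% of a gene's sites, against 63.6% for Wee1, 66.7% for Cdc25a, 88.9% for Ccnd2 and 50.0% for Ccnd1. Exons and UTRs of mm39 were not used here, and neighbouring sites can share reads.

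Of the 47 sites, 31 were called in both siNC lists and 16 in a single siNC list. Of the 31, 14 were called in both siVirma lists, 4 in a single one and 13 in neither. The 13 in neither are 41.9% of the 31, where 33.1% of the 49554 such sites of all genes were in neither. The lost sites had lower levels: their median siNC level was 0.25, against 0.738 for the 14 kept. By gene, Ccne1 kept 3 of 3, Wee1 4 of 6 and Cdc25a 5 of 8 in both siVirma lists, while Ccnd1 kept 2 of 6, Ccnd2 0 of 7 and Ccnd3 0 of 1. Over all genes, 2.83% of sites at a siNC level of 0.1 to 0.2 were in both siVirma lists, against 92.7% at 0.9 to 1. The kept Wee1 sites had siNC levels of 0.577 or more, while the lost Ccnd1 sites had 0.173 to 0.322 and Ccnd3 had 0.216. These counts thus do not separate the gene from the level of its sites.

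The D-type cyclin genes lost most of their called sites. Ccnd2 encodes cyclin D2, and 6 of its 7 sites in both siNC lists were in neither siVirma list. The strongest of these, at 127106766, had levels of 0.386 (17 of 44 reads) and 0.5 (14 of 28) in siNC. Another, at 127106629, had siNC levels of 0.408 (40 of 98) and 0.434 (33 of 76). The other 4 lost sites had mean siNC levels of 0.132 to 0.302. The single Ccnd2 site left was at 127106934, with a level of 0.132 in siVirma replicate 2 (7 of 53 reads, 95% Wilson interval 0.0655 to 0.248), and it was not called in siVirma replicate 1. In siNC that site had 0.5 and 0.491, so the library with a value lay far below both. At a siNC level of 0.4 to 0.5, 19.3% of the sites of all genes were in neither siVirma list, and of the 5 sites of these cell cycle genes there, 3 were.

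Ccnd1 encodes cyclin D1, the D-type cyclin most tied to growth factor signals. Its lost site with the highest level, at 144483857, had 0.315 (63 of 200 reads) and 0.329 (85 of 258) in siNC. Lost sites at 144484027 and 144484713 had mean siNC levels of 0.25 ± 0.00682 and 0.25 ± 0.0288 (SD, n = 2), and the one at 144485152 had 0.173. Another 4 sites were called in a single siNC list at 0.102 to 0.146. Coverage of the gene was not lower in siVirma, as given further on, but the reads at an unlisted position are not known. Among all sites at a siNC level of 0.2 to 0.3, 57.2% were in neither siVirma list.

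Ccnd3, on chromosome 17, encodes cyclin D3. It had 1 site, at 47909770 on the plus strand, with 0.185 (22 of 119 reads) and 0.247 (41 of 166) in siNC and no call in siVirma. Cdk6 had 1 call in a single library, siNC replicate 1, at 3570950 on the plus strand of chromosome 5, with a level of 0.308 (8 of 26 reads, 95% Wilson interval 0.165 to 0.5). These 2 genes could not be tested for a change of level. Intervals cover counting error only.

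At the sites that stayed measurable, levels were lower in siVirma in all 4 genes with such a site. The test took sites called in all 4 libraries with a depth of 20 or more in each, which left 13 sites: 3 of Wee1, 5 of Cdc25a, 3 of Ccne1 and 2 of Ccnd1. They had 21 to 166 reads in siNC and 37 to 195 in siVirma. In the edgeR quasi-likelihood test, adjusted by Benjamini-Hochberg over 20414 sites, 12 of the 13 fell, where 91.6% of all tested sites fell. The groups did not overlap at 13 of 13 sites, with siVirma the lower, and 94.8% of all tested sites were alike in this. None of the 13 rose, where 0.147% of all tested sites rose, and 0 were higher with an unadjusted edgeR p under 0.05. The count of falls was 12 by limma on logit levels and by DESeq2 as well. The site tests share libraries and, within a gene, reads, so they are not independent.

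**Figure D2:**
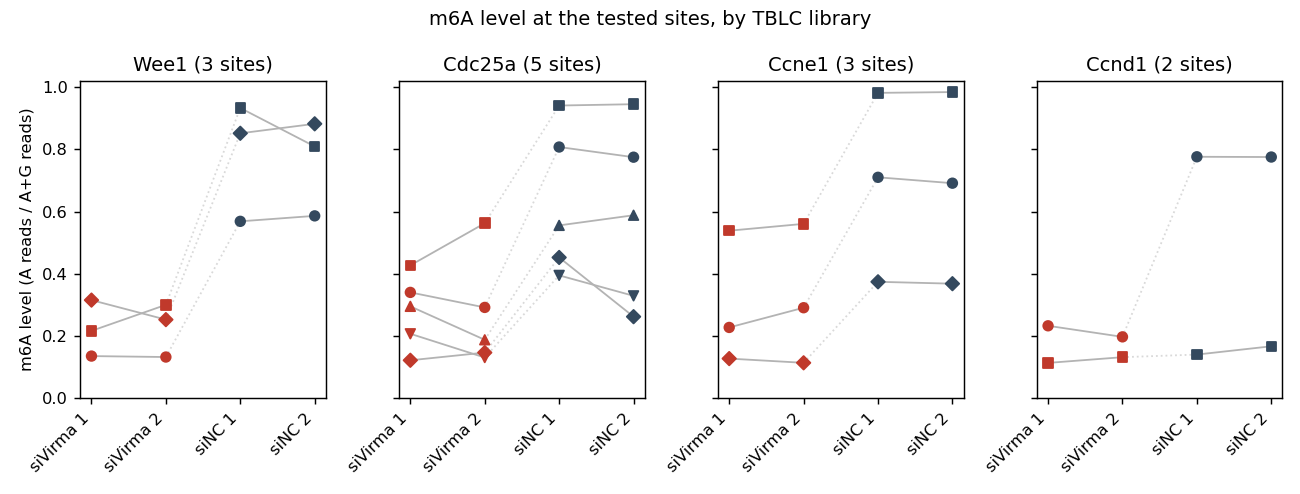
m6A level (vertical axis, A reads divided by A and G reads) at the 13 tested sites in each TBLC library, by gene, with siVirma in red and siNC in grey-blue; each marker shape is a site and lines join its values. At every site both siVirma points lie below both siNC points, with a small gap at the lower Ccnd1 site.

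Wee1 encodes the kinase that holds Cdk1 inactive. Summed over its tested sites it kept 29.6% of its siNC level, the smallest share among the 4 genes. Ccnd1 kept 33.7% with a site near the calling minimum included, and its other tested site kept 27.7%. At 109741464 the level was 0.135 (10 of 74 reads) and 0.132 (7 of 53) in siVirma, against 0.569 (29 of 51) and 0.586 (34 of 58) in siNC. The 2 groups stood far apart and their replicates differed little. This site kept 23.1% of its siNC level (log2 change of the odds -3.13, SE 0.40, edgeR adjusted p = 3.32e-09).

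At 109741671 the Wee1 level was 0.216 and 0.3 in siVirma and 0.933 and 0.81 in siNC. At 109741726 it was 0.315 and 0.252 in siVirma and 0.852 and 0.882 in siNC, with 81 to 103 reads in each library. These sites kept 29.6% and 32.7%, with edgeR adjusted p = 8.93e-09 and 9.98e-15. Outside the test, the neighbouring site at 109741320 had 0.438 and 0.25 in siVirma and 0.889 and 0.7 in siNC, with 18 reads in one siNC library. The most downstream site, at 109742011, had 0.316 in siVirma replicate 2 (6 of 19 reads), no call in siVirma replicate 1, and 0.958 and 0.897 in siNC. The run of sites at the downstream end thus had siNC levels above 0.5 at 5 of 7 positions, and siVirma levels under 0.45 wherever a call was left.

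The upstream Wee1 sites were shallow. Of 4 sites between 109721708 and 109723733, 3 were called in a single siNC list, at 0.423 to 0.529 with 17 to 26 reads. The fourth, at 109722038, had 0.5 and 0.333 in siNC on 16 and 15 reads and was in neither siVirma list. The sole siVirma value among the 4 was 0.312 (5 of 16 reads) at 109721828, in replicate 1. At this depth no difference could be shown for them.

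Cdc25a encodes the phosphatase that removes the phosphates placed by Wee1 and acts at the start of S phase as well as before mitosis. Its highest site, at 109721494, had 0.427 (38 of 89 reads) and 0.562 (36 of 64) in siVirma, against 0.941 (48 of 51) and 0.945 (52 of 55) in siNC. It kept 52.4% of its siNC level (log2 odds -4.10, SE 0.48, edgeR adjusted p = 3.23e-10). At 109721410 the level was 0.34 and 0.292 in siVirma and 0.808 and 0.775 in siNC (edgeR adjusted p = 2.03e-07). At both sites the siVirma libraries lay well below the siNC ones.

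The sites of middle level in Cdc25a fell by less in absolute terms. At 109721959 the level was 0.295 and 0.188 in siVirma and 0.556 and 0.588 in siNC, and at 109722007 it was 0.207 and 0.13 in siVirma and 0.395 and 0.329 in siNC. At 109721512, 18 nt from the highest site, it was 0.122 and 0.146 in siVirma and 0.452 and 0.262 in siNC. Its siNC replicates differed most among the tested sites, and its edgeR adjusted p of 0.000513 was 0.0667 without siNC replicate 1. The site at 109721527, 15 nt further, was in neither siVirma list, with 0.388 and 0.406 in siNC. Among the upstream sites, the one at 109705171 had 0.118 in siVirma replicate 1 and 0.27 and 0.237 in siNC.

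Ccne1 encodes cyclin E1, and its 3 sites were called in every library with 81 to 195 reads. The middle site, at 37797667, was almost fully methylated in siNC, at 0.982 (163 of 166 reads) and 0.984 (127 of 129). In siVirma it had 0.538 (105 of 195) and 0.561 (88 of 157), so 55.9% of the siNC level was left (log2 odds -5.51, SE 0.38, edgeR adjusted p = 5.49e-17). At 37797471 the level was 0.227 and 0.291 in siVirma, against 0.71 and 0.691 in siNC. At 37797915 it was 0.127 and 0.113 in siVirma, against 0.374 and 0.368 in siNC, which left 32.4%. The order of the 3 sites by level was alike in both groups, and the site that kept the largest share was the one with the highest level.

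Ccnd1 had 2 sites that could be tested, at unlike siNC levels. At 144486351 the level was 0.233 (20 of 86 reads) and 0.197 (13 of 66) in siVirma and 0.776 (59 of 76) and 0.776 (38 of 49) in siNC, so 27.7% was left (log2 odds -3.63, SE 0.36, edgeR adjusted p = 4.76e-12). At 144493568, the most upstream site, it was 0.113 and 0.132 in siVirma and 0.14 and 0.167 in siNC, on 5 to 7 A reads in each library. That site did not pass (log2 odds -0.35, SE 0.60, edgeR adjusted p = 0.592). Its levels lie just above the calling minimum of 0.1, below which a site leaves the list. A fall to the share left at 144486351 would have taken it out of the test, so the 2 sites cannot be compared in this.

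The share of the level that was left varied with the siNC level across the tested sites. At low siNC levels the calling minimum of 0.1 in siVirma bounds this share from below. At 0.1 to 0.2, 238 sites were tested of 8418 in both siNC lists, with a median of 92.2% left. Each site was therefore set beside the tested sites in the same 0.1 wide range of siNC level. Over all 20414 sites the median share left was 45.1%, and over the 13 sites it was 37.5%, from 23.1% to 79.8%. In 11 of the 13 it was below the median of the same range. For the 3 Wee1 sites, 0.818%, 1.81% and 4.55% of the tested sites of like siNC level kept less. For the Ccnd1 site at 144486351 it was 2.54%, and for the Ccne1 site at 37797915 it was 6.43%. The Ccne1 site at 37797471, with 24.8%, and the Cdc25a site at 109721494, with 21.6%, were also under the lower quartile of their range. The 2 sites above the median were those of Cdc25a at 109721959 and 109722007, with 63.2% and 64.8% of like sites below them. These positions are a description, with no test. Sites that left a siVirma list are not ranked, so the positions may understate how many sites kept less. In neither siVirma list were 32.3% of sites at siNC levels of 0.3 to 0.4 and 9.98% at 0.5 to 0.6. It was 3.09% at 0.7 to 0.8 and 2.24% at 0.8 to 0.9.

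**Figure D3:**
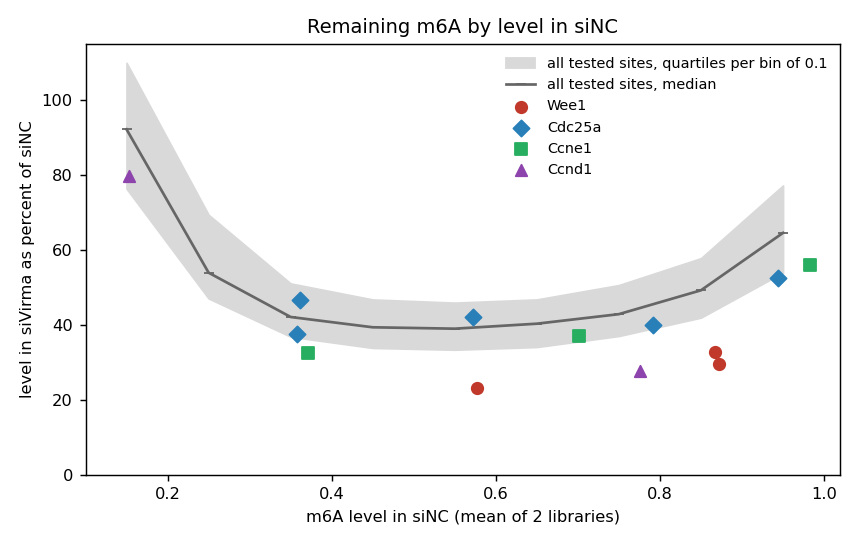
Level left in siVirma as a percent of siNC (vertical axis) against the siNC level (horizontal axis, mean of 2 libraries) for the 13 tested sites, with the median and quartiles of all tested sites per 0.1 of siNC level in grey. The 3 Wee1 sites, at 23.1% to 32.7%, and the Ccnd1 site at 27.7% are among those under the lower quartile of their range of siNC level.

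Summed over these sites per gene, all 4 genes fell by edgeR with adjustment over 5642 genes, where 93.8% of all genes fell and 0.177% rose. Wee1 had 0.232 and 0.23 in siVirma and 0.778 and 0.779 in siNC. Cdc25a had 0.277 and 0.269 in siVirma and 0.594 and 0.563 in siNC. Ccne1 had 0.311 and 0.336 in siVirma and 0.706 and 0.667 in siNC, and Ccnd1 had 0.187 and 0.173 in siVirma and 0.524 and 0.544 in siNC. The groups did not overlap in any of the 4 genes, with siVirma the lower, and 95.4% of all tested genes were alike in this.

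The gene levels were thus 0.231 ± 0.00137 in siVirma and 0.778 ± 0.000868 in siNC for Wee1 (SD, n = 2 each; log2 odds -3.55, SE 0.22, edgeR adjusted p = 4.26e-19), 29.6% of the siNC level. Ccnd1 kept 33.7%, and Ccne1 and Cdc25a kept 47.1% and 47.2%. Differences in this share between genes were not tested. The median of the 5642 tested genes, of 10609 listed, was 44.9%, with quartiles of 38.3% and 53.5%. Of these tested genes, 3.49% kept less than Wee1. Genes with no site called in every library, such as Ccnd2, are not ranked. Each gene rests on its own few sites, so the order between genes is that of those sites. The Ccnd1 value includes the site near the calling minimum, and its other tested site alone kept 27.7%. In siNC, levels ran from Wee1 over Ccne1 and Cdc25a to Ccnd1, and in siVirma from Ccne1 over Cdc25a and Wee1 to Ccnd1.

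The 3 genes with the gene levels most like those of Wee1 over the 4 libraries were Cd320, Ric8a and Rrp8, among 2326 genes with at least 3 tested sites and 100 reads in every library. Their root mean square differences from Wee1 were 0.0263, 0.0273 and 0.0324 on the level scale. Cd320, for example, had 0.268 and 0.257 in siVirma and 0.785 and 0.805 in siNC.

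The conversion rate that the lists give per gene moved with the groups. For Wee1 it was 99.0% and 98.9% in siVirma and 98.1% and 97.9% in siNC, and for Ccne1 it was 98.9% and 98.9% in siVirma and 98.4% and 98.4% in siNC. The median over genes was 98.8% and 98.8% in siVirma and 98.3% and 98.3% in siNC. The labels do not say how this rate was computed, and its part in the level changes was not tested.

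Gene coverage, unlike the m6A level, was called different in just 1 of the 4 genes with a value in every library, Ccnd1. Coverage was compared by limma on log2 values after the median of each library was removed, over the 6787 genes listed in all 4 libraries. In bulk RNA, fewer cells of a type and less RNA per cell cannot be told apart. Of the 4 genes, 1 was called higher and 0 lower, where 9.15% of all genes were called higher and 12.4% lower. Before adjustment, limma gave 0 of the 4 lower with a p under 0.05.

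Wee1 coverage was 43.1 and 40.6 in siVirma and 39.3 and 38.4 in siNC, a centred fold of 0.959 (log2 -0.06, SE 0.06, limma adjusted p = 0.472). Cdc25a coverage was 50.2 and 41.9 in siVirma and 42.8 and 40.2 in siNC, a centred fold of 0.986 (limma adjusted p = 0.786). Ccne1 coverage was 125 and 105 in siVirma and 105 and 98.0 in siNC, a centred log2 difference of 0.01 (SE 0.05, limma adjusted p = 0.932). In these 3 genes the raw values were higher in siVirma replicate 1 than in any other library, as was the median gene, at 46.4 and 40.1 in siVirma and 39.3 and 37.6 in siNC.

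Ccnd1 coverage was 261 and 215 in siVirma and 187 and 183 in siNC, and siVirma was above siNC without overlap, as in 48.6% of all genes before centring. Its centred fold was 1.14 (log2 0.19, SE 0.05, limma adjusted p = 0.0396). The call ended without siVirma replicate 1 (limma adjusted p = 0.133), without siNC replicate 1 (0.172), without siNC replicate 2 (0.195) and with no centring (0.05001), and it held without siVirma replicate 2 (0.0467). The feeder markers given above were also higher in the siVirma libraries, and a link to Ccnd1 coverage was not tested. Ccnd2 had 52.8 in siVirma replicate 2 and 53.9 and 53.4 in siNC, Ccnd3 had 242 and 239 in siNC, and Cdk6 had 19.2 in siNC replicate 1. These 3 had no value in the lists where they had no site.

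**Figure D4:**
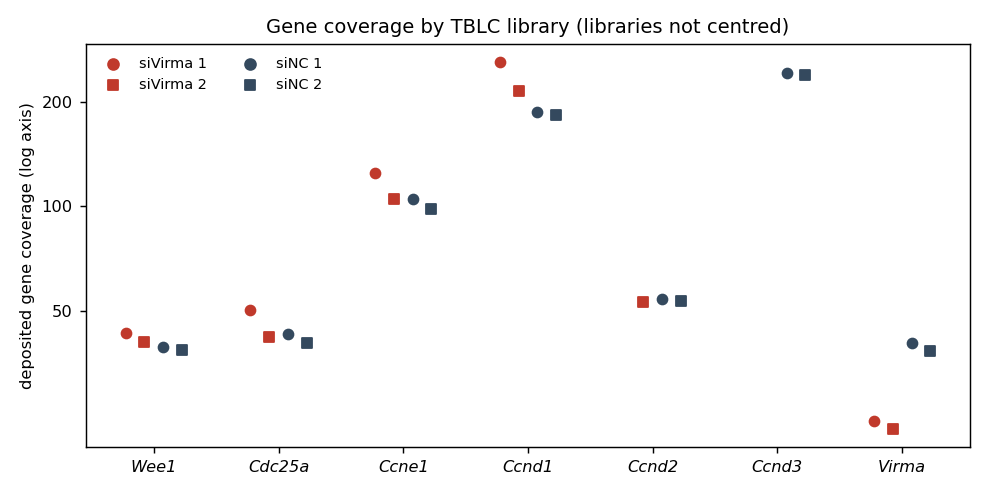
Deposited gene coverage (vertical log axis) of the genes with a value in at least 2 libraries and of Virma, in each TBLC library, siVirma in red and siNC in grey-blue, before any centring. Virma lies lower in both siVirma libraries. Ccnd1 and Wee1 lie higher in both, as do 48.6% of all genes before centring.

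Other genes of the switch fell about as often as genes in general. A list of 55 other G1/S and G2/M genes had 48 with a called site and 30 that could be tested for level. By edgeR 28 of the 30 fell and 0 rose, where 93.8% of all tested genes fell and 0.177% rose. Before adjustment, 0 had a p under 0.05 with a higher level in siVirma, whether by edgeR, limma or DESeq2. The counts of falls by limma and DESeq2 were 27 and 25. The median share left was 42.3%, against 44.9% over all tested genes. The lowest p belonged to Cdt1, which loads the replicative helicase, with 0.242 ± 0.0378 in siVirma and 0.633 ± 0.0015 in siNC (SD, n = 2 each; edgeR adjusted p = 3.27e-21). The next were Fbxw11, a ubiquitin ligase subunit that targets Wee1 and Cdc25a in human cells, with 0.356 ± 0.0332 in siVirma and 0.724 ± 0.0126 in siNC, and Ambra1, which directs the degradation of D-type cyclins, with 0.185 ± 0.0358 in siVirma and 0.584 ± 0.0273 in siNC.

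The 2 genes that did not pass were the kinase that Wee1 and Cdc25 act on and a Cdk inhibitor. Cdk1 had 0.286 and 0.207 in siVirma and 0.204 and 0.25 in siNC at 1 site (edgeR adjusted p = 0.678). Cdkn1a had 0.232 and 0.266 in siVirma and 0.263 and 0.238 in siNC over 2 sites (edgeR adjusted p = 0.823). The groups overlapped in both genes. This covers only sites still called in every library. Cdk1 had 1 and 1 called sites in siVirma against 3 and 3 in siNC, and Cdkn1a had 2 and 2 against 6 and 5.

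In coverage, 1 gene of this list was called higher and 2 lower, of 30, where 9.15% of all genes were called higher and 12.4% lower, and they are named here after their values were seen. Pkmyt1, which encodes the membrane-bound relative of Wee1, was at a centred 1.21-fold (limma adjusted p = 0.0127), Cks2 at 0.794-fold (0.00871) and Fbxw11 at 0.861-fold (0.0326). Without siVirma replicate 1 the limma adjusted p was 0.0822 for Pkmyt1, 0.0725 for Cks2 and 0.128 for Fbxw11. Without siNC replicate 2 it was 0.0739 for Pkmyt1 and 0.281 for Fbxw11, and without siVirma replicate 2 it was 0.0791 for Fbxw11. With no centring, neither fall was called, at 0.443 for Cks2 and 0.857 for Fbxw11.

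In EPSC the question was whether these transcripts, which the Gata6 guide does not target, differed between guides. The pooled table held 15 of the 47 sites, in Wee1, Cdc25a, Ccne1 and Ccnd3, and none of Ccnd1, Ccnd2 or Cdk6. Each of its rows meets the TBLC minimums in sgGata6, in sgCtrl or in both. At least 20 reads in both groups were found at 9 sites. Two-sided Fisher's exact tests on the pooled reads, which compare the libraries and not the conditions, called 0 of the 9 after adjustment over 10185 sites, where 0.275% of all sites were called. At an unadjusted p under 0.05 they called 0 of the 9, where 11.8% of all sites were, and a chi-square test also called 0 after adjustment. The lowest unadjusted Fisher's exact p was 0.227.

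The highest Ccne1 site, at 37797667, had 0.921 in sgGata6 (128 of 139 reads, 95% Wilson interval 0.864 to 0.955) and 0.889 in sgCtrl (56 of 63, 0.788 to 0.945). At 37797471 the level was 0.706 in sgGata6 (60 of 85) and 0.606 in sgCtrl (40 of 66). The Wee1 site at 109741726 had 0.803 in sgGata6 (53 of 66) and 0.786 in sgCtrl (33 of 42). The Cdc25a site at 109721494 had 0.912 in sgGata6 (31 of 34) and 0.96 in sgCtrl (24 of 25). Of the 9 sites, 6 were higher and 3 lower in sgGata6, and their intervals overlapped, so a difference was not detectable at this depth.

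Below the minimum of reads, the upstream Wee1 site at 109723733 had 0.476 in sgGata6 (10 of 21 reads) and 0.0833 in sgCtrl (1 of 12), and it was not tested. One EPSC row inside the Ccne1 run, at 37797651, was in none of the TBLC lists. It had 0.0219 in sgGata6 (3 of 137) and 0.155 in sgCtrl (11 of 71), with a Fisher's exact p of 0.000577 that was 0.0918 after adjustment over all sites.

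The 2 kinds of cell had similar orders of level at the shared sites. In sgCtrl, Ccne1 had 0.606, 0.889 and 0.239 at its 3 sites, in order of position, where the siNC means in TBLC were 0.701, 0.983 and 0.371. The Wee1 sites at 109741464 and 109741726 had 0.55 and 0.786 in sgCtrl, against 0.577 and 0.867 in siNC. Cdc25a sites went both ways, with 0.706 in sgCtrl against 0.572 in siNC at 109721959 and 0.684 against 0.791 at 109721410. Of 13 shared sites with at least 15 sgCtrl reads, 9 were lower in sgCtrl, which is 69.2%, where 66.6% of 10958 such sites of all genes were lower. The median difference was -0.0814, against -0.0425 over all sites. The tables come from separate experiments, and no test was made between them.

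**Figure D5:**
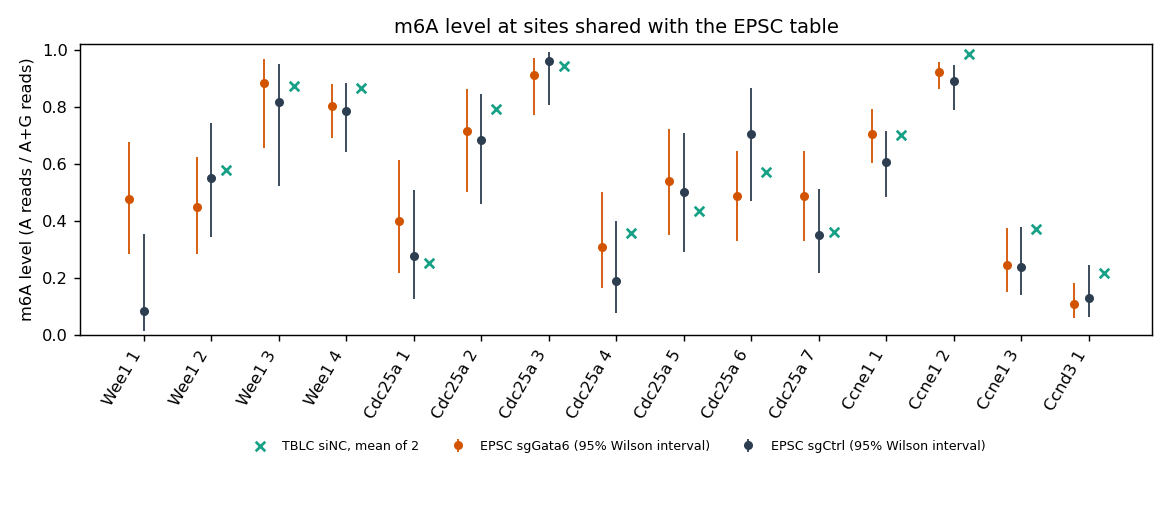
m6A level (vertical axis) at the 15 sites found in the EPSC table, ordered by gene and position, in pooled sgGata6 (orange) and sgCtrl (dark blue) with 95% Wilson intervals, and the siNC mean of TBLC (green crosses) where both siNC libraries have a call. The intervals of both guides overlap at every site, and the highest Ccne1 and Cdc25a sites are near 0.9 in all 3.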

How the data were processed

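Messenger RNA was converted by GLORI and read on an Illumina NovaSeq, per the labels' protocols. The build is mm39, per the submitters' processing notes. Aligner and site caller: not given in the sources used here. The deposited TBLC lists hold counts of A+G and A reads per called site, per the file headers. In each row the deposited fraction (level) equals A over A+G reads within rounding. The authors' p-values were not used. The deposited coverage signal and conversion rate are given per gene. The deposited EPSC counts and levels are pooled over the 2 libraries of a group, so Fisher's exact test replaced a count model; A reads were level times A+G reads, and 4 other columns were not used.

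A and G reads were fitted in edgeR 4.0.16 (R 4.3.3) as a model with library terms and an effect of group on A reads only. Coverage was tested with limma 3.58.1 (eBayes) on log2 values; the median of the libraries was 0.17 higher in siVirma before centring. All tests were fitted on all sites or genes, at an adjusted p of 0.05 (Benjamini-Hochberg). Alternatives were DESeq2 1.42.0 and limma on logit levels with 0.5 added to A and G reads, other read minimums, and leaving out single libraries. Summaries were made in Python 3.11.15 (scipy 1.17.1, pandas 2.3.3, numpy 2.4.6), with figures by matplotlib 3.10.9. The tests were tried on simulated data. Levels of replicates differed by about as much as read counting gives, and their read depths by more. The 8 genes, the list of other cell cycle genes and the markers were chosen with earlier results of these data known. Named sites were all tested sites and, per gene, the highest site lost in both siVirma lists; other sites in the text were added after their values were seen; from the list of other genes, the 3 with the lowest p and the 2 that did not pass were named. No reference sequence of mm39 was used here.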

Additional observations from a re-analysis of the deposited data

How the results depend on the processing

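The levels of the tested sites and genes among the 8 kept their direction under every setting tried, with 1 call lost in 111 site results (Cdc25a at 109721512 without siNC replicate 1) and 0 in 35 gene results. With a minimum of 50 reads, 7 of 7 tested sites of these genes fell, and 8504 sites and 3108 genes fell in all, from fewer tested. Single libraries left out gave 12 to 13 fallen sites of these genes and 4 to 5 fallen genes, Ccnd2 entering without siVirma replicate 1. Site numbers in siVirma were 43.6% of siNC, 33.3% with levels of at least 0.2, 49.2% with at least 30 reads, and 41.0% to 46.2% with single libraries left out.

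Coverage calls depended on single libraries and on scaling. Of 841 lower and 621 higher genes, 10 to 785 and 15 to 580 were called with single libraries left out, the lowest without siVirma replicate 1; without siNC replicate 2 they were 450 and 304. With no centring 30 were lower and 642 higher, and 0 of these 4 genes were higher. Leaving out single libraries gave 0 to 1 of the 4 higher. The replicate numbers do not show a pairing for site levels (correlation of same-numbered deviations 0.00844). For coverage the correlation was 0.138 over 6787 genes, and more genes were called with a replicate block. The replicate block gave 18692 fallen sites, 5293 fallen genes, 1306 genes lower in coverage and 832 higher, and 12 sites and 4 genes of these genes fell. The causes were not tested. Sites below the calling minimums have no value, so falls at low levels are understated.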
